A study of Rattus with 18 samples.

Results

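Acta2, Thbs1, Timp3 and Mmp8 were taken here as the matrix remodelling and fibroblast activation genes of the authors' deposited gene tables, 4 of the 34 genes listed there. Other listed genes, such as Pdgfb and Il6, also have annotations to collagen or matrix. They were selected on measured values, since both tables list only genes whose iECM and control samples differed at a small unadjusted p. Their fold changes and p-values are therefore given as a description and no test of them was added. Acta2 stood in the day 1 table and the other 3 in the day 3 table. The direction of each fold change, given here as iECM over control, is not stated in the files and was inferred from the counts.

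The samples came from Sprague-Dawley rats, all of which had a 35 min myocardial infarction, and RNA was taken from the free wall of the left ventricle. By the agent and time labels, 4 control and 5 iECM samples were taken on day 1, and again 4 control and 5 iECM samples on day 3, where iECM is an infusible extracellular matrix. The treatment text of every sample names an iECM infusion, so what the 8 control samples received, if anything, is not given in the labels, and each difference below rests on the agent label. Transcripts were counted with barcoded hybridization probes of a NanoString panel, on 50 to 100 ng of RNA, and neither animal age nor whether each sample is a separate animal is stated. P-values therefore measure the spread between these samples, which may be technical. The deposited counts sum to between 816397 and 1687688 per sample over the rows taken as gene probes. Those rows carry no gene names, so the level of a gene in each sample is not given here, and the markers of heart muscle, fibroblasts or neutrophils could not be checked.

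After an infarction the collagen network of the wall is first taken apart and then rebuilt as a scar. Matrix metalloproteinases cut collagen and other matrix proteins, and the tissue inhibitors of metalloproteinases block them. Matricellular proteins such as thrombospondin-1 do not build the matrix but act between it and the cells, and resident fibroblasts turn into contractile, collagen-producing myofibroblasts, whose hallmark is smooth muscle actin. In whole ventricular wall, a change in RNA per cell and a change in the number of cells of a type cannot be told apart.

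Mmp8, the collagenase stored in neutrophil granules, which cuts fibrillar collagen, had the largest fold change of the 4 genes. In the authors' deposited table it was higher with iECM at day 3, with a log2 fold change of 1.09, or 2.13-fold, an unadjusted p of 0.00291 and q = 0.182. The standard error implied by that fold change and its test score was 0.37 on the log2 scale, so the approximate 95% interval ran from 1.29-fold to 3.50-fold. By size Mmp8 ranked 4 of the 22 fold changes of the day 3 table of the authors that can be read as a size. By p it ranked 6 of 23 in the authors' deposited table, and its q was above 0.05.

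Timp3, the inhibitor that binds to the matrix itself and blocks both metalloproteinases and membrane sheddases of the ADAM family, was also higher in the authors' deposited table for day 3. Its log2 fold change there was 0.40, or 1.32-fold, with an unadjusted p of 0.0330 and a q of 0.646 by the authors' deposited table. The implied standard error was 0.19 and the approximate 95% interval ran from 1.02-fold to 1.70-fold. A collagenase and an inhibitor of its family thus stood on the same side of 0 in 1 table, Mmp8 with the larger and less precise value. Whether the fold changes of Mmp8 and Timp3 differ from each other was not tested.

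Thbs1, which encodes thrombospondin-1, a platelet and matrix glycoprotein that activates latent TGF-beta and restrains vessel growth, was the member with a negative value at day 3. The authors' deposited table gave it a log2 fold change of -0.34, or 1.26-fold lower, with an unadjusted p of 0.0486 and q = 0.646. The implied standard error was 0.17 and the approximate interval ran from 1.00-fold to 1.60-fold lower. Its p was the largest of the 23 genes in the day 3 table of the authors, so Thbs1 is the gene nearest to the edge of that list, and genes beyond the edge are not in the deposited table.

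Acta2, the smooth muscle actin of vessel walls and myofibroblasts, was the single member at day 1 and the single member with a q under 0.05. In the authors' deposited table its log2 fold change was -0.61, or 1.52-fold lower with iECM, with an unadjusted p of 8.41e-05 and q = 0.0314. The implied standard error of 0.15 was the smallest of the 4 members, and the approximate interval ran from 1.23-fold to 1.88-fold lower. Acta2 had the smallest p of the 11 genes listed for day 1 in the authors' deposited table but only the rank of 7 by size. It does not appear at day 3 and the other 3 genes do not appear at day 1 in the authors' deposited tables, and whether the effect of iECM on any of them differed between the days was not tested.

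**Figure D1:**
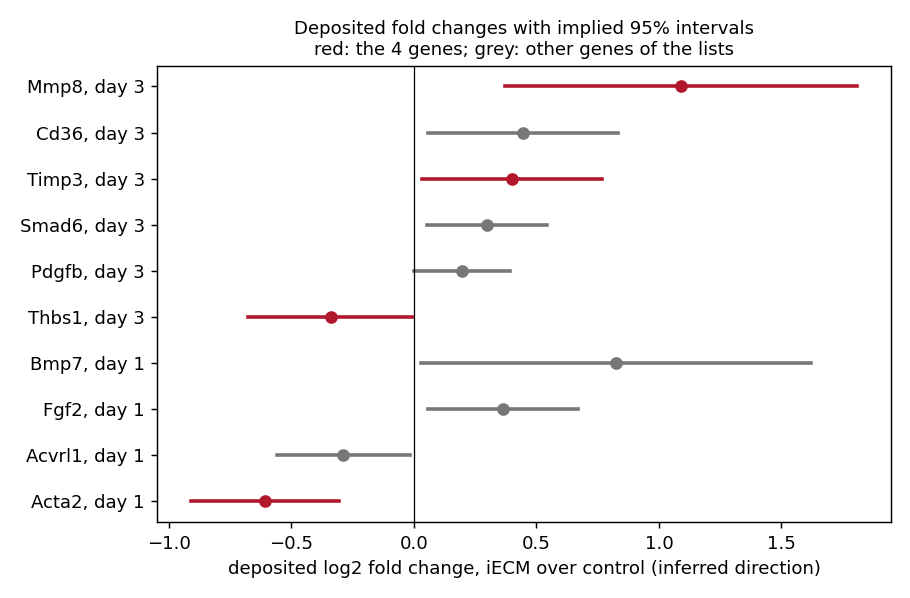
Deposited log2 fold changes of iECM over control (points) with the 95% intervals implied by their test scores (lines), for the 4 genes (red) and the other genes of the matrix, TGF-beta and growth factor lists that the authors' tables name (grey), by day. Mmp8 at 1.09 has the widest interval of the red genes, and the interval of Thbs1 ends next to 0.

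The sign of these values was inferred. The headers of the deposited tables give no direction or base, so the deposited fold changes, 11 at day 1 and 22 at day 3 with Rnase1 at 25.9 left out, were set beside the fold changes and test scores of all 374 unnamed rows outside the control and reference rows, without naming any row. A count model that adds the background of the negative controls to each expected count was used for this. It was chosen after edgeR's likelihood ratio test, tried first, had not separated the directions at day 1. Under the background model the mean joint distance in fold change and score to the nearest row was 0.185 at day 1 for log2 of iECM over control and at least 0.362 for the other 3 readings. At day 3 it was 0.131 against at least 0.286. Of the rows with an unadjusted p under 0.05 in this model, 43 were higher and 8 lower with iECM at day 3. At day 1 there were 9 of each. The deposited day 3 values were mostly positive too, so the day 3 distance can favour iECM over control without any row matching its gene. For Acta2 the nearest row lay at 0.507 on this reading and at 1.32 with the sign turned. Both are farther than the day 1 mean of 0.185, so no row lay close to Acta2 under either sign. For Mmp8 the nearest row lay at 0.116 on this reading and at 0.259 with the sign turned. Rows lay close to Thbs1 and Timp3 under both signs, at 0.0288 and 0.0260 for Thbs1 and 0.0579 and 0.0210 for Timp3, so these genes take their direction from the table as a whole. Over all models and distances tried, 10 in number with both days counted, 6 put log2 of iECM over control nearer than its reverse and 4 put the reverse nearer. At day 1 the joint distance under edgeR's likelihood ratio test was 0.739 for iECM over control and 0.734 for the reverse, and its median gap in fold change alone was 0.186 and 0.107. At day 3 edgeR's joint distance was 0.316 for iECM over control and 0.397 for the reverse. The mean gap of fold changes from means scaled on the reference rows was 0.0149 and 0.0708 at day 1 and 0.0125 and 0.0216 at day 3. At day 3 the median gap was 0.0110 and 0.00533 by edgeR and 0.0051 and 0.0048 by the background model. The direction, and with it each "higher" and "lower" of a named gene, is therefore a reading that depends on the model and not a fact of the files. Whatever the reading, Thbs1 moved against Mmp8 and Timp3 in the authors' deposited table.

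The q-values in the authors' deposited tables correspond to 374 genes tested on each day. Of these, the authors' deposited table listed 11 at day 1, or 2.94%, of which 7, or 1.87%, were higher with iECM on the inferred direction, 4, or 1.07%, were lower, and 1, or 0.267%, had a q under 0.05. At day 3 the authors' deposited table listed 23, or 6.15%, of which 15, or 4.01%, were higher on the same direction, 8, or 2.14%, were lower, and 2, or 0.535%, had a q under 0.05. The member at day 1 was lower, and of the 3 members at day 3, 2 were higher and 1 was lower. Because the rule took its genes from those lists, nothing is read from these counts. With no difference at all, a p under 0.05 would be reached by 18.7 of 374 genes if the p-values are exact.

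The counts show how common fold changes of these sizes were on the whole panel. The 4 genes were listed for a small p in these same samples, so their place on the panel is a description and no test. The unnamed probes may also include the rows of the 4 genes themselves. By edgeR's quasi-likelihood fit, 1 of 371 unnamed probes was at least as far from 0 at day 1 as the deposited value of Acta2, and 2 of 371 were as far at day 3 as that of Mmp8. Timp3 and Thbs1 lay closer to the bulk, with 26 of 371 probes (7.01%, 95% Wilson interval 4.83% to 10.1%) as far from 0 as Timp3 and 40 of 371 (10.8%, 8.02% to 14.3%) as far as Thbs1. These intervals treat the probes as independent, although all were measured in the same samples. They do not hold the spread between samples or models, and shares given below lie outside them. The background model gave larger shares, namely 7.75% of 374 rows for Acta2, 4.28% for Mmp8, 14.7% for Timp3 and 21.7% for Thbs1. Leaving out 1 sample moved the shares of the edgeR fit. Without day 1 control replicate 2 the share for Acta2 rose from 0.270% to 3.73%. Without day 3 iECM replicate 1 the share for Mmp8 fell from 0.539% to 0%. Without day 3 iECM replicate 4 the share rose from 7.01% to 12.7% for Timp3 and from 10.8% to 17.2% for Thbs1. No source used here states which of these scales the deposited values follow. The middle of the panel at day 3 also differed, with the median probe at -0.04 in the edgeR fit and at 0.09 in the background model, which differs from it in background, scaling, samples fitted and rows at once.

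**Figure D2:**
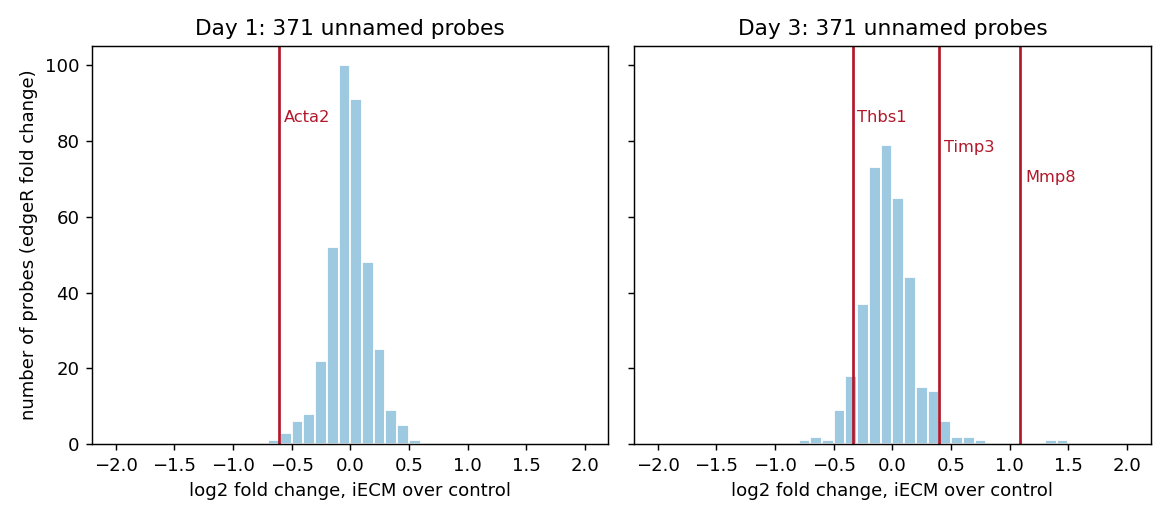
Number of unnamed probes by their log2 fold change of iECM over control in the edgeR fit, in bins of 0.1. Day 1 and day 3 have 371 probes each, reference probes included. Red lines mark the deposited log2 fold changes of the named genes. Acta2 and Mmp8 lie at the edge of the panel and Thbs1 and Timp3 in its shoulders. The genes were listed for a small p in these samples, so their place is no test. The lines mark deposited values and assign no probe to a gene.

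The spread between samples can be compared in the same way. The median standard error of an unnamed probe in the edgeR fit was 0.187 at day 1 and 0.180 at day 3 on the log2 scale. The implied errors of Acta2, Thbs1 and Timp3 were of that order, with 233, 194 and 172 of 371 probes less precise than each of them. Mmp8 was among the least precise, since only 19 of 371 probes, or 5.12%, had a larger error. These ranks set errors implied by the lr score beside errors of the quasi-likelihood test, which is another measure. In the background model the median error was 0.155 at day 1 and 0.150 at day 3. The implied errors of Thbs1 and Timp3 were larger than that, and the error of Acta2 was close to it. The edgeR test called 0 of 371 probes (0%) on each day at an adjusted p under 0.05. DESeq2 and limma also called 0, and by edgeR 3 probes at day 1 and 11 at day 3 had an unadjusted p under 0.05. Leaving out 1 sample at a time gave 2 to 19 such probes at day 1, the most without control replicate 2, and 3 to 25 at day 3, the most without iECM replicate 4. The background model called 1 of 374 rows at day 1 and 3 at day 3, and 18 and 51 rows had an unadjusted p under 0.05 in it. The q of Acta2 under 0.05 in the authors' deposited table stands beside 0 probes called at day 1 in the quasi-likelihood fit. It also stands beside the 1 row called at day 1 by the background model. That model was chosen after seeing the data, and no row in it lay close to Acta2. The quasi-likelihood test is not the test behind the deposited q, and neither count is a check of that q.

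The authors' deposited tables list 2.94% of the 374 genes at day 1 and 6.15% at day 3, and the counts of the gene lists are to be read against those shares. Of 24 matrix proteases and inhibitors in the list used here, Mmp8 and Timp3 were the 2 in the authors' deposited tables. Of 23 matricellular and structural matrix genes, Thbs1 was the single one, and of 14 genes of activated fibroblasts and smooth muscle, Acta2 was the single one. No collagen gene of the list was in the authors' deposited tables. Which of the remaining list genes the panel measures is not known, so an unlisted gene may have been measured without a small p or not measured at all.

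The counts of cell type markers are to be read against the same shares of 2.94% and 6.15%. Of 12 neutrophil markers Mmp8 was the single one listed at day 3, and of 6 markers of activated fibroblasts and 5 of vascular smooth muscle Acta2 was the single one listed at day 1. None of 6 macrophage, 6 cardiomyocyte or 5 endothelial markers was listed on either day in the authors' deposited tables. Which of the unlisted markers the panel measures is not known, so an unlisted marker may not have been measured at all. The part of neutrophil, fibroblast or smooth muscle numbers in the values of Mmp8 and Acta2 was not tested.

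Some genes of related lists were also in the authors' deposited tables, to be read against the same shares of 2.94% and 6.15%. Of 6 thrombospondin receptors 1 was listed at day 3. Of 25 genes of TGF-beta and BMP signalling 2 were listed at day 1 and 1 at day 3. Of 10 fibroblast growth factors and their kin 1 was listed on each day. Which of the unlisted genes the panel measures is not known. Cd36, a receptor for thrombospondin-1 as well as a fatty acid transporter, stood at 0.45 in the authors' deposited table for day 3, against -0.34 for Thbs1. Smad6, an inhibitor of BMP and TGF-beta signalling inside the cell, stood at 0.30 and Pdgfb, a growth factor for fibroblasts and pericytes, at 0.20 in the authors' deposited table for day 3. At day 1 the authors' deposited table held Bmp7 at 0.83, Fgf2 at 0.36 and Acvrl1, an endothelial receptor of the TGF-beta family, at -0.29. The q-values of these 6 genes ran from 0.540 to 0.989 in the authors' deposited tables, so Acta2 remained the only gene of these lists with a q under 0.05.

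The authors' deposited gene ontology table groups the day 3 genes by biological process and holds 707 terms, 240 of which (33.9%) contain Thbs1, Timp3 or Mmp8. Thbs1 was held by 180 terms, or 25.5%, which placed it 4 of 23 genes after Il1b with 356, Il6 with 278 and Cd36 with 186. Mmp8 was held by 63 terms and Timp3 by 27. How many terms hold a gene depends on how fully it is annotated, and a high number is no measure of its response.

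**Figure D3:**
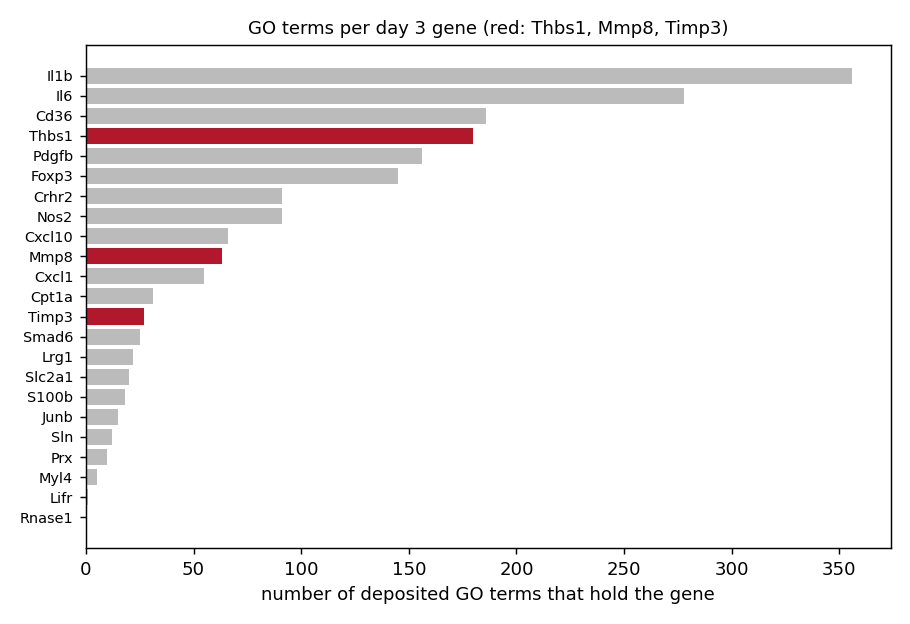
Number of gene ontology terms in the authors' deposited day 3 table that hold each of the 23 day 3 genes, with Thbs1 (180), Mmp8 (63) and Timp3 (27) in red. Interleukin genes and Cd36 are held by more terms than Thbs1, and Rnase1 is held by none.

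The terms of Thbs1 ranged most widely, and some were shared with the other members. Of 21 terms named for clotting, haemostasis or wounds, Thbs1 was in 21, and of 24 named for vessels or endothelium it was in 16. It was in 10 of 12 terms named for TGF-beta, in 15 of 19 on the movement of leukocytes and in 10 of 33 on lipids or fatty acids. Timp3 was in none of the vessel, TGF-beta, leukocyte movement and lipid terms and in 1 of the clotting and wound terms, while Mmp8 was in none of all these groups.

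Timp3 was found in terms on protein cleavage and cell death, most of which Thbs1 was in too. It was in 8 of 11 terms named for proteolysis or peptidases. Of the 11, Thbs1 was in 6, some of them without Timp3, and Mmp8 was in 0. Timp3 was also in 7 of 16 terms on apoptosis and the clearance of dying cells, and these 7 were all among the 12 that held Thbs1. Regulation of metallopeptidase activity, the term closest to the textbook role of Timp3, held Timp3 as its single day 3 gene, where the authors' deposited table gave an adjusted p of 0.0475. Regulation of membrane protein ectodomain proteolysis held Timp3 and Il1b, where the authors' deposited table gave 0.00377.

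Mmp8 was in 12 of 16 terms named for reactive oxygen, reactive nitrogen or nitric oxide, against 7 for Thbs1. It was in 17 of 47 on cytokine production, against 16 for Thbs1, and in 4 of 4 on macrophage or microglial activation, against 3 for Thbs1. Of 8 terms named for collagen or matrix it was in 1, collagen metabolic process, which also held Il6 and Pdgfb and to which the authors' deposited table gave an adjusted p of 0.00376. Thbs1 was in 1 of the 8, regulation of cell-matrix adhesion, together with Cd36. Regulation of extracellular matrix disassembly held Il6 alone in the authors' deposited table, although Mmp8 and Timp3 were in the gene list. These groups of terms were drawn up from words in the term names after the names had been read, and many terms contain the same genes, so they are a description of the annotation.

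**Figure D4:**
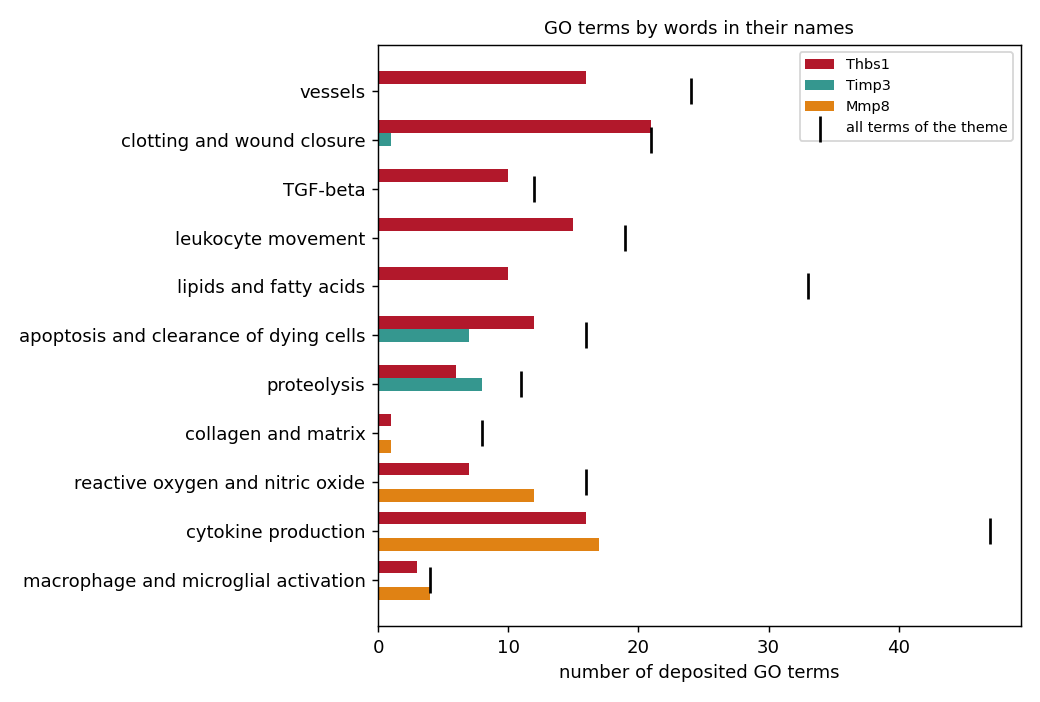
Number of terms in the authors' deposited day 3 gene ontology table that hold Thbs1, Timp3 or Mmp8 (bars), by words in the term names, with the number of all terms of each theme (black marks). Thbs1 fills the clotting and wound theme at 21 of 21, Timp3 is highest in proteolysis at 8 of 11 and Mmp8 in cytokine production at 17 of 47, where Thbs1 has bars of 6 and 16.

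Of the 707 terms 30 held 2 of the 3 members and none held all 3. Thbs1 was in each of the 30, with Mmp8 in 17 and with Timp3 in 13, and Mmp8 and Timp3 shared 0 terms. The 13 terms shared with Timp3 were 48.1% of the terms of Timp3 and 7.22% of those of Thbs1, and the 17 shared with Mmp8 were 17 of the 63 terms of Mmp8 and 9.44% of those of Thbs1. Since Thbs1 stood on the other side of 0 from both, each of the 30 terms holds genes of both signs by construction.

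Response to mechanical stimulus, with the smallest adjusted p of the deposited table of the authors at 5.67e-09, held Thbs1 and Timp3 among 10 day 3 genes, 3 of them higher with iECM and 7 lower. The Mmp8 term of smallest adjusted p, positive regulation of reactive oxygen species metabolic process, held Thbs1 and Mmp8 among 7 genes, 3 higher and 4 lower, at 6.59e-08 in the authors' deposited table. Wound healing held Thbs1 and Timp3 among 7 genes, 3 higher and 4 lower, at 7.47e-05 in the authors' deposited table. The 3 other pairings with the smallest values were reactive oxygen species metabolic process, its regulation and positive regulation of response to external stimulus, from 8.38e-07 to 5.35e-05 in the authors' deposited table, all with Thbs1 and Mmp8. Terms shared by Thbs1 and Timp3 alone among the day 3 genes concerned the extrinsic apoptotic pathway, mostly through death domain receptors, and terms shared by Thbs1 and Mmp8 alone concerned macrophage activation. In the authors' deposited table positive regulation of the pathway through these receptors had an adjusted p of 0.00291 with 18 genes in the term, and positive regulation of macrophage activation 0.00544 with 29.

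**Figure D5:**
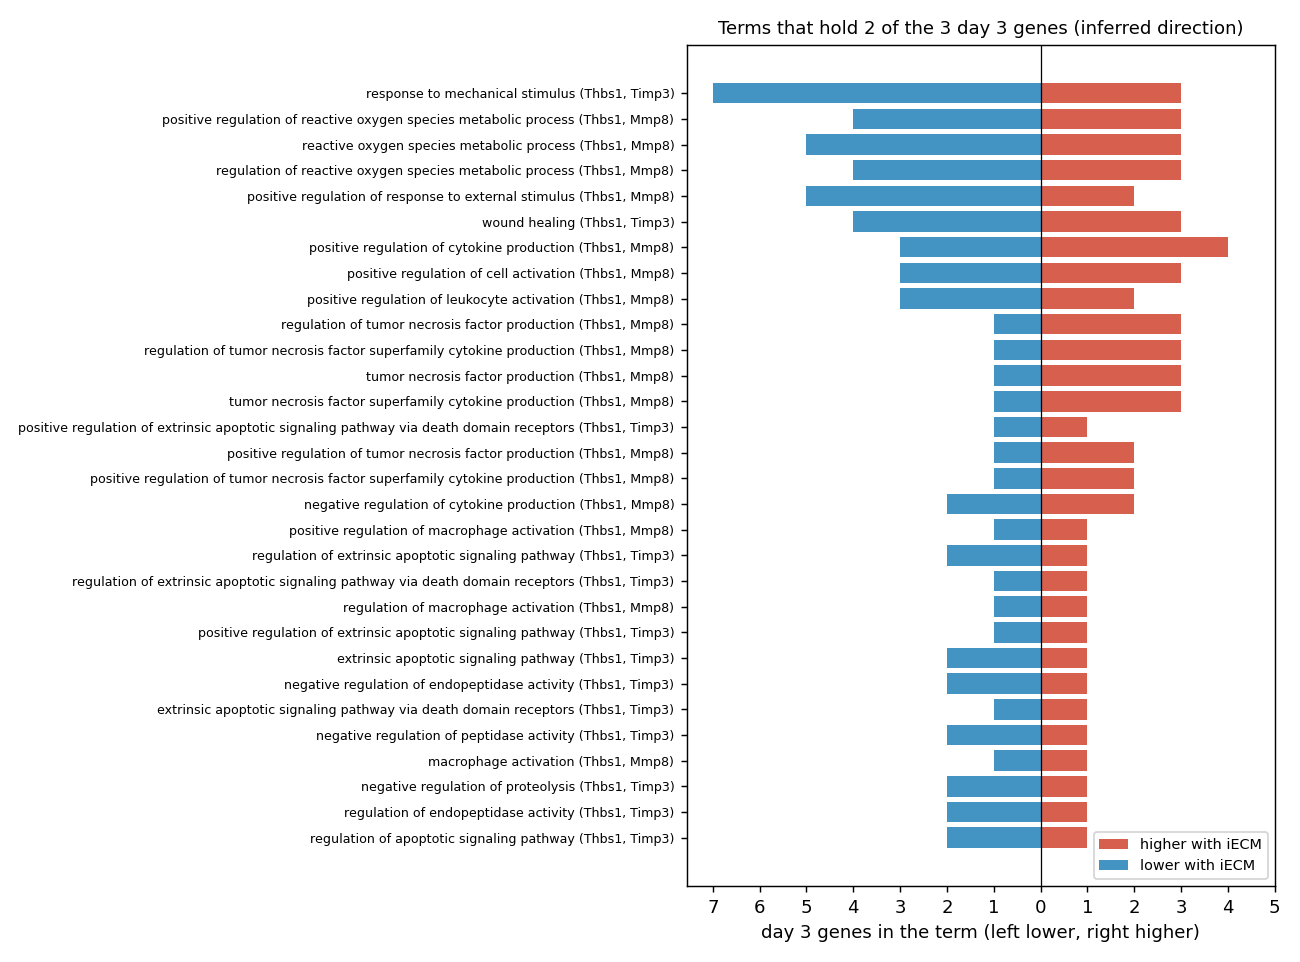
The 30 gene ontology terms of the authors' deposited day 3 table that hold 2 of Thbs1, Timp3 and Mmp8, in order of adjusted p, with the number of day 3 genes in each term that were higher (right) or lower (left) with iECM on the inferred direction. Response to mechanical stimulus is the largest, with 3 genes higher and 7 lower, and each term has bars on both sides.

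The remaining leading terms set the members beside other genes. For Thbs1 regulation of vasculature development held 4 genes higher and 3 lower, and the authors' deposited table gave it an adjusted p of 2.07e-05. For Timp3 regulation of the ERK1 and ERK2 cascade and the cascade itself held 6 genes each, 4 higher and 2 lower, at 1.49e-04 and 1.92e-04, and response to vitamin held 4 genes, 1 higher and 3 lower, at 0.00145 in the authors' deposited table. For Mmp8 interleukin-6 production held 7 genes, 4 higher and 3 lower, at 7.81e-07, and its regulation 6 genes, 4 higher and 2 lower, at 1.27e-05 in the authors' deposited table.

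The day 3 gene most like Thbs1 in its terms was Cd36, with 62 terms in common of 304 that hold either, or 20.4%. Pdgfb followed with 55 of 281, or 19.6%, and Il1b with 66 of 470, or 14.0%. For Mmp8 the nearest were Cd36 at 15.8%, Il1b at 12.0% and Il6 at 11.1%, and for Timp3 they were Thbs1 at 6.70%, Nos2 at 6.31% and Smad6 at 6.12%. Each measure is the number of terms that hold both genes over the number that hold either, among the 707 terms. It says nothing of how the genes moved.

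In the authors' deposited KEGG table, 4 of 38 pathways (10.5%) held a member. Thbs1 was in all 4, namely Malaria, ECM-receptor interaction, TGF-beta signaling pathway and MicroRNAs in cancer, Timp3 was in the last of them, and Mmp8 was in none. ECM-receptor interaction held Thbs1 and Cd36, adjusted to p = 0.0383 in the authors' deposited table, with values of opposite sign for its 2 genes. The TGF-beta pathway held Thbs1 and Smad6, also of opposite sign, adjusted to p = 0.0419 in the authors' deposited table. MicroRNAs in cancer held Thbs1, Timp3 and Pdgfb at 0.0433, and Malaria held Thbs1 with Cd36, Il1b and Il6 at 2.24e-04, in the authors' deposited table.

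These enrichment values rest on the 23 listed genes, of which 17 entered the KEGG test, set against 17962 genes for gene ontology and 9373 for KEGG in the authors' deposited tables. A gene could enter the list only from the 374 on the panel, and of the 707 ontology terms 134 held a single day 3 gene. Acta2 is in no term, because the deposited term tables cover the day 3 genes.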

How the data were processed

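NanoString probe counts of 18 samples were used. The deposited value table holds raw counts for 394 numbered rows without gene names, per the labels' protocols from hybridized total RNA. Rows 375 to 380 were read as positive and rows 381 to 388 as negative controls, and rows 389 to 394 as reference probes, from the values. The authors' deposited gene tables give p-values, q-values, a log2 fold change (the base is inferred) and a test score named lr, and their term tables give p-values and another number, the genes per term. No source used here names the tool behind them. The deposited p-values equal the upper tail of a chi-square distribution with 1 degree of freedom at the lr score. Standard errors were therefore implied as the fold change over the root of the score, with intervals at 1.96 errors.

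edgeR 4.0.16 was run on 380 rows, which include the reference rows. It used filterByExpr at a minimum count of 10, TMM, 1 model of 4 group means and the quasi-likelihood test with Benjamini-Hochberg adjustment. DESeq2 1.42.0 and limma 3.58.1 were alternatives. A negative binomial likelihood ratio model with the negative-control mean as background, scaled on the reference rows and fitted per day, was added after seeing the data. Fits were tested on simulated counts. All 15 Entrez identifiers of the KEGG table matched a symbol in NCBI RefSeq's gene table (GRCr8). Genes named are the members, listed genes of the gene lists, and the 3 genes that share most terms with each member. Terms named include the 5 of smallest adjusted p for each member. The members and lists were chosen with earlier results of these data known.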

Additional observations from a re-analysis of the deposited data

How the results depend on the processing

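The counts of 0 called probes at day 1 and at day 3 stayed at 0 under DESeq2, limma, other scalings, no filter, the samples of 1 day, all rows and each sample left out in turn. Under the background model, chosen after seeing the data, they became 1 at day 1 and 3 at day 3, and the cause was not tested. No paired analysis was possible because replicate numbers follow accession order. The inferred direction was reversed in 4 of 10 comparisons of both readings, where the distance of the reverse minus that of iECM over control was negative. It was -0.0058 at day 1 by the joint distance and -0.0785 at day 1 and -0.00563 at day 3 by the median gap in fold change, all under edgeR's likelihood ratio test, and -0.0003 at day 3 by the median gap of the background model. The background model was adopted after the edgeR result was seen. The share of probes as far from 0 as Acta2 was 0.270% and reached 1.87% without day 1 control replicate 1, 3.73% without day 1 control replicate 2 and 1.88% without day 1 iECM replicate 4. It was 0% with the day 1 samples alone. For Mmp8 it was 0.539% and fell to 0% without day 3 iECM replicate 1. For Thbs1 it reached 17.2% and for Timp3 12.7% without day 3 iECM replicate 4. Taking 371 in place of 374 genes tested left each member's q on the same side of 0.05.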
